A study of Mus musculus with 10 samples.

Results

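The data described here are Polycomb-group (PcG) ChIP-seq peaks at 6 mouse genes for POU transcription factors of the nervous system. The 3 genes of class III are Pou3f1, Pou3f2 and Pou3f3, and the 3 genes of class IV are Pou4f1, Pou4f2 and Pou4f3. They were chosen by name, and were located among 22350 protein-coding genes by the GENCODE annotation of mm9. Each gene was examined over a window of the gene body plus 10 kb on either side, and every peak that shared at least 1 bp with the window was counted. The study mapped PcG proteins and H3K27me3 in embryonic stem cells (ESCs) and neural stem cells (NSCs). The ESC group was the J1 line, grown on inactivated fibroblast feeders in medium with 15% serum and LIF at 1000 U/ml, a cytokine that keeps them undifferentiated, and feeders were depleted before ChIP. The NSC group was made from J1 ESCs by differentiation in vitro and was kept on gelatin with 10 ng/ml of EGF and FGF. Both groups therefore share 1 parental line, and the NSCs model a cultured progenitor and not a brain tissue. Formaldehyde cross-linking (1%, 10 min) and shearing to a mean of 250 bp were common to all samples, and the methods give a further cross-linking step with EGS for Ring1b. The 6 lists are ESC Ring1b, ESC Cbx2, ESC Ezh2, ESC H3K27me3, NSC Ring1b and NSC H3K27me3. Each comes from 1 library, so no value below has a replicate error, no difference between ESCs and NSCs was tested, and the genes of a class are not replicates of one another. The lists hold no expression values, so neither the identity of the cells nor transcription of these genes could be checked against marker genes.

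POU factors bind DNA through a POU-specific domain linked to a homeodomain. Class III genes are active in neural progenitors and in newly formed neurons, whereas class IV genes are switched on in postmitotic sensory neurons. PcG complexes hold developmental genes silent: PRC2, with the methyltransferase Ezh2, deposits H3K27me3, and PRC1, with the ubiquitin ligase Ring1b, can be brought to that mark by Cbx subunits such as Cbx2. PcG domains of mouse ESCs typically lie over CpG-rich DNA at the starts of such genes.

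The DNA at these starts is shown first because PcG peaks were found over it. The sequences are the 300 bases just before the start, from the mm9 genome and in the direction of transcription, with each CpG in capitals. Where a RefSeq promoter matched mm9, the more upstream of the RefSeq and GENCODE starts was used. Pou3f1 lies on the forward strand, and its sequence spans chr4:124334596-124334895. The Pou3f2 sequence is on the reverse strand at chr4:22415514-22415813. The Pou3f3 sequence is on the forward strand at chr1:42752313-42752612. Both class IV sequences are on the reverse strand, Pou4f1 at chr14:104867217-104867516 and Pou4f2 at chr8:80960552-80960851.
Pou3f1: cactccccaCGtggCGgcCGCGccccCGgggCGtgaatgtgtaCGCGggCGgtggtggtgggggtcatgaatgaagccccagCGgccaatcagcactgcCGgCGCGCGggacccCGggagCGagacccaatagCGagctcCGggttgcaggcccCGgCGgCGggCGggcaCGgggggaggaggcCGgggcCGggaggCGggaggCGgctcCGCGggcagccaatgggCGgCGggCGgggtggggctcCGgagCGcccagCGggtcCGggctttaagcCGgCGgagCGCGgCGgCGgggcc
Pou3f2: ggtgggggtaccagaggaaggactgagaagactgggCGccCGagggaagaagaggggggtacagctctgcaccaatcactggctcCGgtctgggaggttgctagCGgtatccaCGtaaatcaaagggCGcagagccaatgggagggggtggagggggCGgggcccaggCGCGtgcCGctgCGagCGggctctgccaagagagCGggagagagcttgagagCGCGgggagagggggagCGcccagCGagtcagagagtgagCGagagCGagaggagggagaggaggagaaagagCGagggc
Pou3f3: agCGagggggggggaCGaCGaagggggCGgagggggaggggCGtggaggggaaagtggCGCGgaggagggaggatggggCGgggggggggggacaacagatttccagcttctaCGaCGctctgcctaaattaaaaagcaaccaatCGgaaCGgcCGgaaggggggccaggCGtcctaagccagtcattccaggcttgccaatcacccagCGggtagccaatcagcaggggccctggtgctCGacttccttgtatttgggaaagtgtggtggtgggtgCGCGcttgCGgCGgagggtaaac
Pou4f1: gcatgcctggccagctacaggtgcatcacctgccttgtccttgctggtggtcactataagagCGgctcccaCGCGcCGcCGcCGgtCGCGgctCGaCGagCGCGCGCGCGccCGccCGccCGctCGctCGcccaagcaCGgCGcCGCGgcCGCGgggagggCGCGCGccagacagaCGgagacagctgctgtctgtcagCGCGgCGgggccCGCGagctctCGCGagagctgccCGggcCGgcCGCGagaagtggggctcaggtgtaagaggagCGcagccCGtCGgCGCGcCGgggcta
Pou4f2: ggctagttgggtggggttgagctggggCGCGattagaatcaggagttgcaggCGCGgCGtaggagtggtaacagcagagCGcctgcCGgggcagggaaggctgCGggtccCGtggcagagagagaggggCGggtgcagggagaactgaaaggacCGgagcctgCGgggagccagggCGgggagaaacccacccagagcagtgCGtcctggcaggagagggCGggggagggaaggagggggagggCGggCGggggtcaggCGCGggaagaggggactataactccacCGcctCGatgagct
All 300 bases of each of these sequences lay under an ESC Ring1b peak. The sequences of Pou3f2 and Pou3f3 also lay wholly under ESC Cbx2 and Ezh2 peaks, with 300 and 212 bases under ESC H3K27me3. Pou3f1 of class III and Pou4f1 of class IV met no ESC peak other than Ring1b. The Pou4f2 sequence had 49 bases under ESC H3K27me3 and all 300 under NSC H3K27me3. In NSCs the Pou3f1 sequence had 295 bases under Ring1b and the Pou4f1 sequence had 184.

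CpGs were dense at every start. The number of CpGs in the 300 bases was highest in Pou4f1, at 47, followed by Pou3f1 at 42, Pou4f3 at 29, Pou4f2 at 21, and Pou3f2 and Pou3f3 at 20 each. The median over 22344 protein-coding starts was 9. These background starts were all from GENCODE, whereas the sequences of Pou3f2 and Pou3f3 precede RefSeq starts 33 bp and 1378 bp further upstream. The 200 bases before the GENCODE start of Pou3f3 held 35 CpGs. Its rank among the 6 genes and its share of starts below therefore depend on the start used. At least as many CpGs as in Pou4f1 were found at 1.24% of all starts, and at least as many as in Pou3f2 or Pou3f3 at 25.7%. The octamer ATGCAAAT, a motif that POU factors can bind, was searched on both strands and occurred in 0 of the 6 sequences and in 1.83% of all starts. These letters were merely absent from this window.

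Starts and ends of peaks were multiples of 200 bp in all lists, and the narrowest peaks were 1000 bp. The number of peaks ran from 1033 for ESC Cbx2 to 2335 for ESC Ring1b, and was 1389 for NSC Ring1b and 1647 for NSC H3K27me3. Peaks of the smallest width made up 8.14% of ESC Ring1b peaks, 29.0% of NSC Ring1b peaks and between 14.7% and 33.01% of the others. Read depth is not in the lists, so a missing peak means only that no window passed the threshold of the peak caller.

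In ESCs, Ring1b was found at all 6 genes. The start site lay inside an ESC Ring1b peak in 6 of 6 genes, compared with 7.03% of all protein-coding genes, and at least 1 such peak lay in the window of 11.5% of all genes. Pou3f2, a progenitor gene with 1 exon block on chromosome 4 (22413791 to 22415480), had the highest coverage: a peak of 22800 bp filled 99.0% of its window. Pou3f3, its close relative in the cortex on chromosome 1 (42753991 to 42757052), had 2 peaks of 9400 bp and 4400 bp and a coverage of 45.1%. Pou3f1, a regulator of myelinating Schwann cells on chromosome 4 (124334896 to 124337899), had 1 peak of 5200 bp, or 22.6% of the window. Among class IV genes, Pou4f3, which is needed in inner ear hair cells and lies on chromosome 18 (42554251 to 42555747), had 1 peak of 8800 bp and a coverage of 40.9%. Pou4f1, a gene of sensory ganglia on chromosome 14 (104862737 to 104867216), had 3 peaks of 4000 bp, 3400 bp and 2200 bp and a coverage of 39.2%. Pou4f2, a gene of retinal ganglion cells on chromosome 8 (80956908 to 80960551), had peaks of 4600 bp and 1000 bp and a coverage of 23.7%. The 2 classes overlapped in Ring1b coverage, since Pou3f1 was below every class IV gene and Pou3f2 and Pou3f3 were above them. The order of the lowest pair, Pou3f1 and Pou4f2, and of Pou4f1 and Pou4f3 rests on differences of under 2 percentage points.

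**Figure D1:**
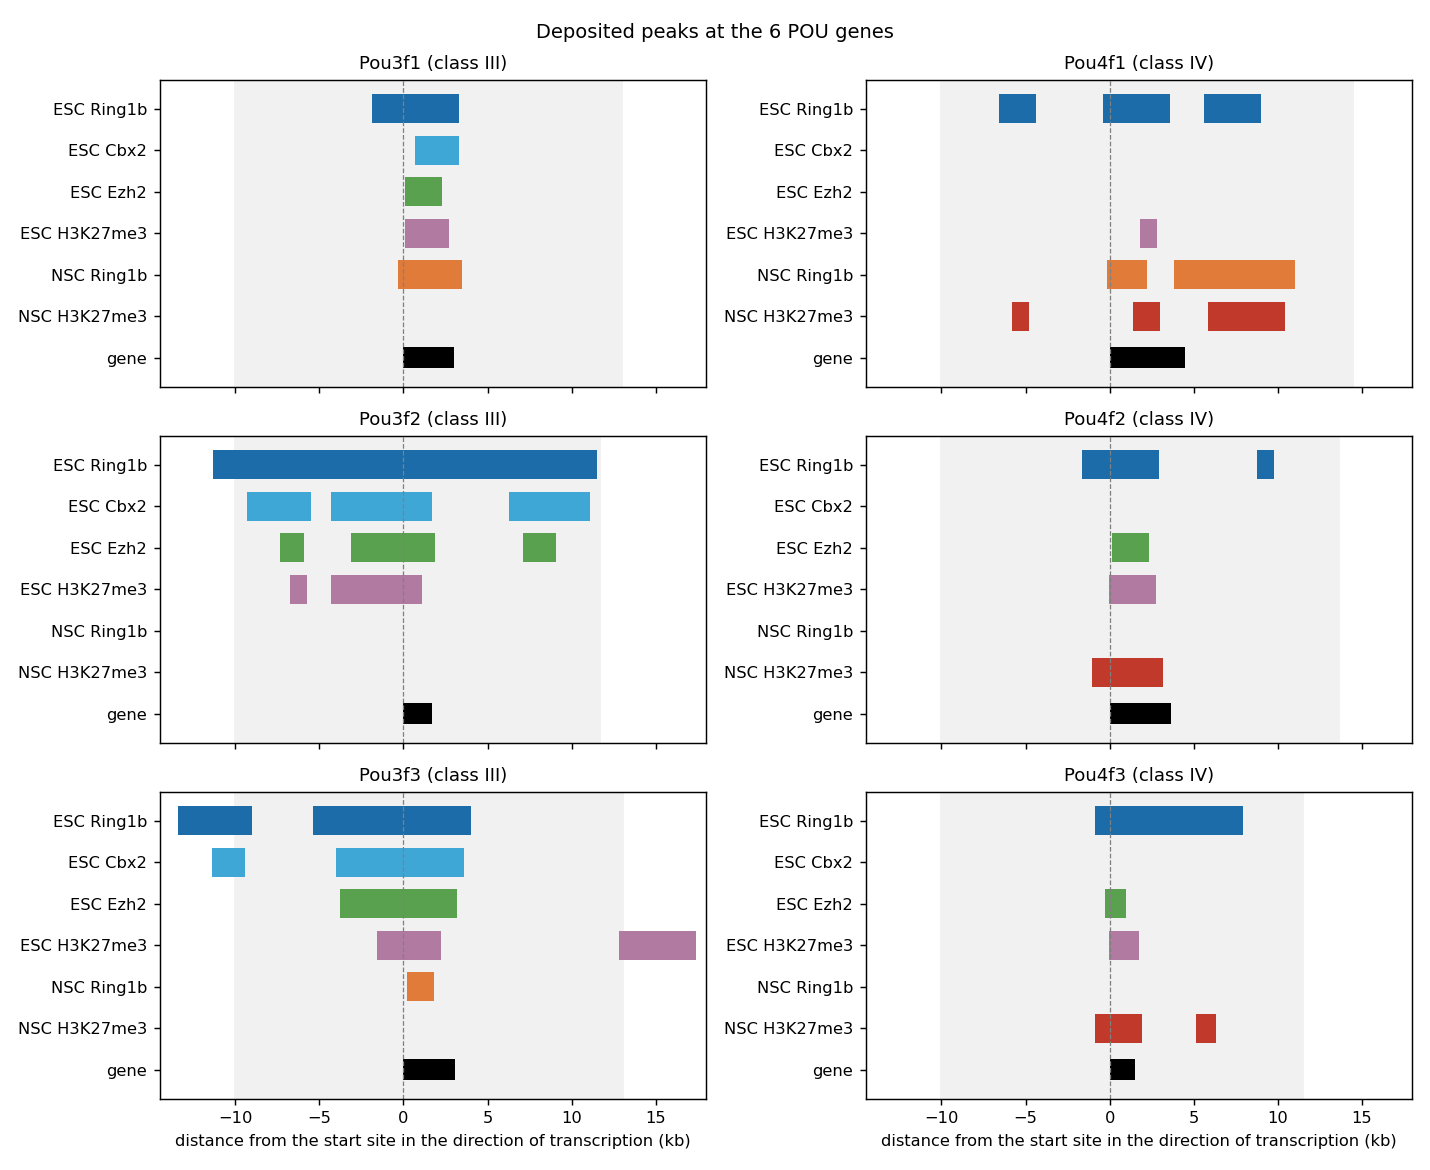
Peaks of the 6 lists that touch each gene window (coloured bars, 1 row per list) against the distance from the start site in kb, with transcription to the right. The black bar is the gene, the dashed line its start and the grey area the window of the gene plus 10 kb on either side; the widest bar is the ESC Ring1b peak of 22800 bp at Pou3f2, and NSC H3K27me3 bars are seen only in the right-hand column, class IV.

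In Cbx2 the classes did not overlap. At least 1 ESC Cbx2 peak lay in the window of 3 of 3 class III genes and 0 of 3 class IV genes, compared with 3.09% of all protein-coding genes. Cbx2 is a chromodomain subunit of canonical PRC1. Cbx7, which the paper also used to define PcG targets in ESCs, is not among the 6 lists. Absence of canonical PRC1 therefore cannot be read from Cbx2 alone. At Pou3f2 the 3 Cbx2 peaks, of 6000 bp, 4800 bp and 3800 bp, covered 67.3% of the window. Pou3f3 had peaks of 7600 bp and 2000 bp that covered 35.6%. Pou3f1 had 1 peak of 2600 bp that covered 11.3%. The start lay inside a Cbx2 peak in Pou3f2 and Pou3f3 (1.15% of all genes), whereas the Pou3f1 peak began 705 bp into the gene. At class IV genes the start was 2892785 bp from the nearest Cbx2 peak for Pou4f1, 1534951 bp for Pou4f2 and 1371051 bp for Pou4f3, so none was narrowly missed by the window. Among the 1687 genes with both Ring1b and H3K27me3 in the ESC window, which all 6 genes were among, 27.2% also had Cbx2.

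Ezh2 was present at 5 of the 6 genes, against 5.28% of all genes. Coverage was 38.7% at Pou3f2 with 3 peaks (5000 bp, 2000 bp and 1400 bp), 30.4% at Pou3f3 with 1 peak of 7000 bp, and 9.56% at Pou3f1 with 1 peak of 2200 bp. In class IV it was 9.30% at Pou4f2 (2200 bp), 5.58% at Pou4f3 (1200 bp) and 0 at Pou4f1, whose start was 1485616 bp from the nearest Ezh2 peak. Pou3f1 and Pou4f2 thus had the same 2200 bp under Ezh2 and differ in share only through the length of the window. The start lay inside an Ezh2 peak in Pou3f2, Pou3f3 and Pou4f3, compared with 2.56% of all genes. It was missed by 105 bp in Pou3f1 and by 151 bp in Pou4f2, both less than the 200 bp step of the peak grid.

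The mark that Ezh2 deposits was present at all 6 genes in ESCs, against 9.97% of all genes. H3K27me3 peaks covered 29.5% of the window of Pou3f2, 17.6% of Pou3f3 and 11.3% of Pou3f1. In class IV they covered 11.8% of Pou4f2, 8.37% of Pou4f3 and 4.08% of Pou4f1. The widest were 5400 bp at Pou3f2 and 4600 bp at Pou3f3, the latter 12810 bp downstream of the start and for the most part beyond the window. Pou4f1 had 1 peak of 1000 bp, the narrowest that can be called. The class ranges overlapped only through Pou4f2, which exceeded Pou3f1 by under 1 percentage point. The start lay inside an H3K27me3 peak in 4 of 6 genes (4.31% of all genes). The exceptions were Pou3f1, where the peak began 105 bp downstream, and Pou4f1, where it began 1816 bp downstream.

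**Figure D2:**
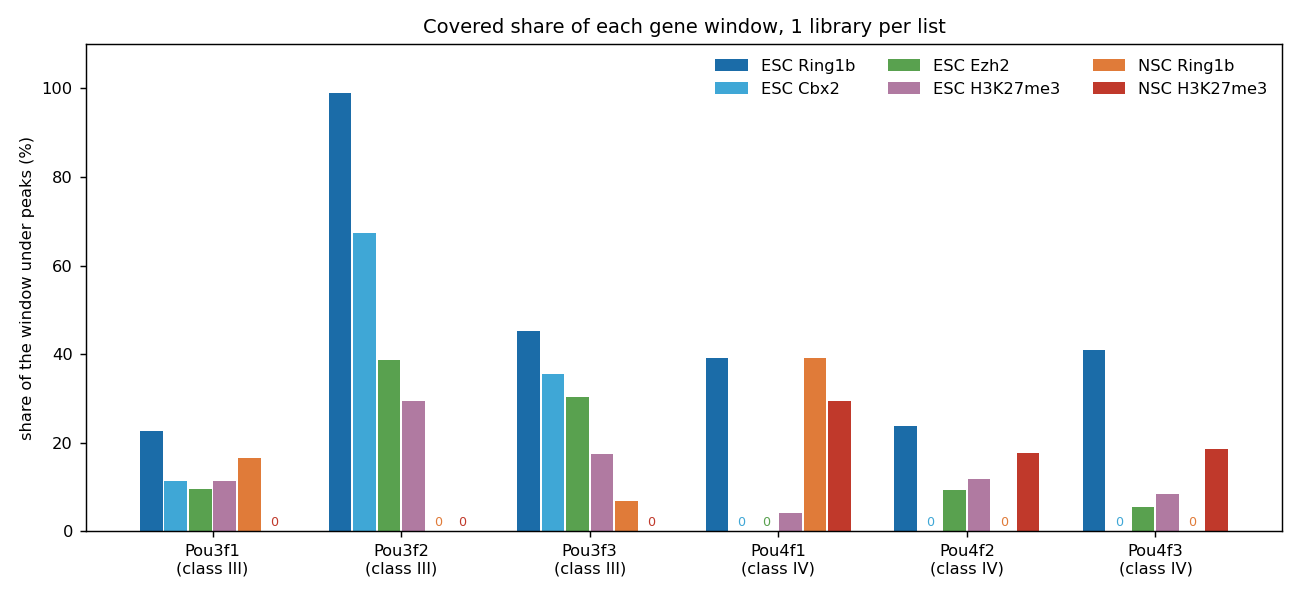
Share of each gene window under peaks (vertical axis, percent) for the 6 genes, with 1 bar per list and a 0 where the list had no peak; there is 1 library per list and no error bar. Blue ESC Ring1b bars stand at all 6 genes between 22.6% and 99.0%, Cbx2 bars stand only at class III genes, and red NSC H3K27me3 bars only at class IV genes.

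Peak widths at these genes ran from the top of a list to its minimum. The ESC Ring1b peak at Pou3f2 ranked 12 of 2335 by width, and by coverage of its window Pou3f2 ranked 9 among the 2572 genes with any ESC Ring1b peak. Pou3f2 also had narrow peaks, an Ezh2 peak of 1400 bp that ranked 774 of 1173 and an H3K27me3 peak of 1000 bp, the minimum. At Pou3f3 the Ezh2 peak of 7000 bp ranked 43 of 1173 and the Cbx2 peak of 7600 bp ranked 66 of 1033, while its NSC Ring1b peak of 1600 bp ranked 532 of 1389. The main Ring1b peaks of the other genes ranked 135 (Pou3f3), 149 (Pou4f3), 303 (Pou3f1), 366 (Pou4f2) and 432 (Pou4f1). ESC H3K27me3 peaks of class IV differed in width, and the median of the list was 1800 bp. Those of 2800 bp at Pou4f2, 1800 bp at Pou4f3 and 1000 bp at Pou4f1 ranked 450, 907 and 1824 of 2192. In NSCs the Pou4f1 peaks were the widest of the 6 genes, with a Ring1b peak of 7200 bp that ranked 96 of 1389 and an H3K27me3 peak of 4600 bp that ranked 172 of 1647.

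**Figure D3:**
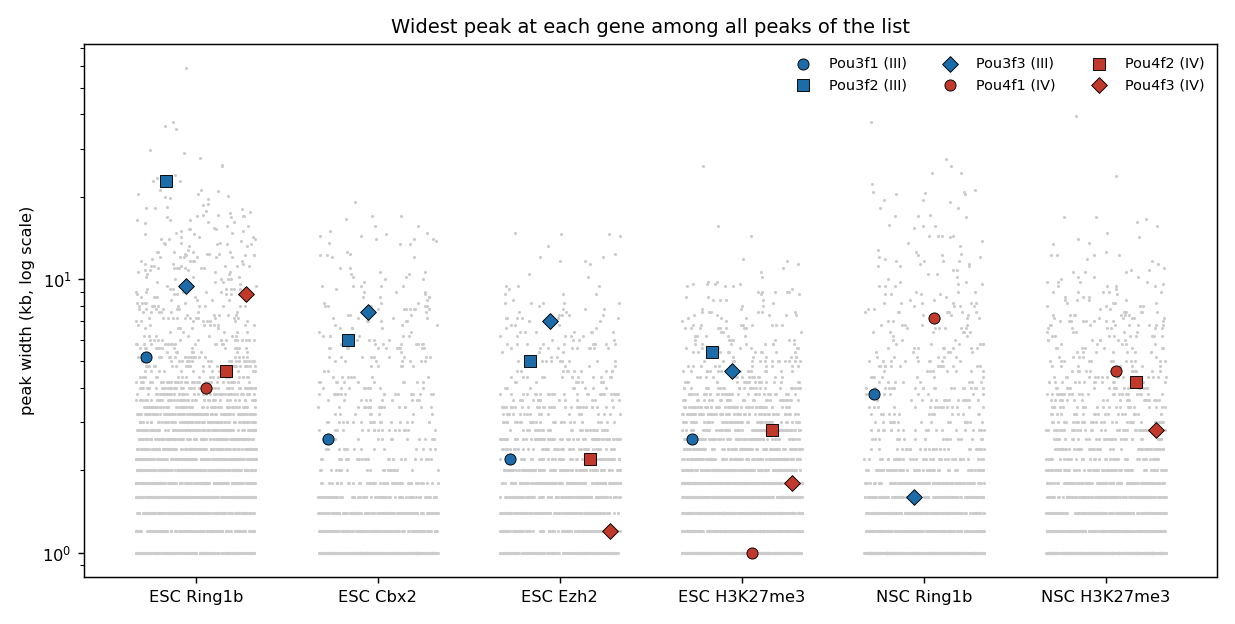
Width of the widest peak at each gene (symbols; blue for class III, red for class IV) among all peaks of the same list (grey points, spread sideways at random) on a log axis in kb. In the ESC Ring1b list the Pou3f2 symbol is highest of the 6 genes (22800 bp, rank 12 of 2335), and a gene without a peak in a list has no symbol there.

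Within ESCs the peaks were nested. At every gene with Cbx2 or Ezh2 peaks, 100% of the bases under them inside the window lay under Ring1b, and the same held for H3K27me3 except at Pou3f3, where 93.8% did. The ESC Ring1b list was also the broadest, at 7.90 Mb against 2.59 Mb for Cbx2, 2.85 Mb for Ezh2 and 4.905 Mb for H3K27me3. The share of nested bases over all genes was not computed. At Pou3f2 the Ring1b peak reached 11.3 kb upstream and 11.5 kb downstream of the start, with Cbx2 and Ezh2 each in 3 blocks inside it. H3K27me3 at Pou3f2 was found in the central and upstream blocks only, so 43.8% of Cbx2 bases and 59.5% of Ezh2 bases there carried the mark. All 4 ESC lists shared 5000 bp at Pou3f2, 3800 bp at Pou3f3 and 1600 bp at Pou3f1. The class IV genes had no Cbx2 peak, and so could have no base under all 4 lists. Ring1b, Ezh2 and H3K27me3 shared 2200 bp at Pou4f2, 1000 bp at Pou4f3 and none at Pou4f1. The ESC Ezh2 and H3K27me3 peaks of Pou3f1 had 0 bp outside its single exon block, and those of Pou4f2 had 0 bp and 49 bp outside the gene.

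Pou3f3 was the only one of the 6 genes with further peaks between 10 kb and 25 kb from the gene, all of them from ESC lists. Upstream of it lay Ezh2 and H3K27me3 peaks of 3400 bp and 1200 bp that ended 10191 bp and 12191 bp before the start. Downstream lay Ring1b and Ezh2 peaks of 3000 bp and 1800 bp that began 15010 bp and 15610 bp after it. Only 1010 bp of the upstream Ring1b peak of 4400 bp and 252 bp of the downstream H3K27me3 peak counted toward its coverage, so at Pou3f3 the edge of the window divides a wider group of peaks.

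In NSCs, H3K27me3 was absent from class III and present at class IV. Of the 3 class III genes, 0 had an NSC H3K27me3 peak in the window, and of the 3 class IV genes 3 had one (4.70% of all genes). The mark covered 6.40 kb at Pou3f2, 4.05 kb at Pou3f3 and 2.60 kb at Pou3f1 in ESCs, and 0 kb at each in NSCs. The nearest NSC H3K27me3 peak was 797280 bp from the start of Pou3f2, 1472896 bp from Pou3f1 and 2015391 bp from Pou3f3. At class IV genes more bases were covered in NSCs than in ESCs: 7.20 kb against 1.00 kb at Pou4f1, 4.20 kb against 2.80 kb at Pou4f2, and 4.00 kb against 1.80 kb at Pou4f3. All ESC H3K27me3 bases of the 3 class IV windows lay under NSC peaks too (100%). Among the 2229 genes with an ESC H3K27me3 peak in the window, 70.4% had none in NSCs, as the class III genes did, 85.3% had fewer bases covered in NSCs, and 13.2% had more, as the class IV genes did. The class III result was thus the usual one among genes with the mark in ESCs, and the class IV direction the less frequent one. At the start itself, an NSC H3K27me3 peak was present at Pou4f2 and Pou4f3 (1.77% of all genes), and of the genes whose start had the mark in ESCs 25.4% had it in NSCs. At Pou4f1 the nearest NSC peak began 1416 bp inside the gene, and its widest one lay 5.82 kb to 10.4 kb downstream of the start, past the end of the gene. None of these differences could be set against a spread between replicates.

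Ring1b followed another division. An NSC Ring1b peak was found in the window of Pou3f1, Pou3f3 and Pou4f1 (4.64% of all genes), and in none of the other 3. Pou4f1 had 9.60 kb under Ring1b in both cell types, of which 60.4% was shared. Where ESCs had 3 peaks, NSCs had 2, of 2400 bp over the start and of 7200 bp beginning 3.82 kb downstream. Pou3f1 had 5.20 kb in ESCs and 3.80 kb in NSCs, with 69.2% of the ESC bases under the NSC peak. Pou3f3 had 10.4 kb in ESCs and 1.60 kb in NSCs, in a peak that began 210 bp downstream of the GENCODE start and lay wholly in the gene. At Pou3f2 the 21.5 kb under Ring1b in the ESC window had no counterpart, and the nearest NSC Ring1b peak was 798280 bp away. Pou4f2 and Pou4f3 had 5.60 kb and 8.80 kb in ESCs and none in NSCs, the nearest peaks being 857850 bp and 205451 bp away. Of the genes with an ESC Ring1b peak in the window, 94.0% had fewer bases covered in NSCs, 5.02% had more, and 77.1% had no NSC peak there. The start lay inside an NSC Ring1b peak in Pou3f1 and Pou4f1 (1.74% of all genes). Among genes whose start lay in an ESC Ring1b peak, 16.7% had it in an NSC peak.

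**Figure D4:**
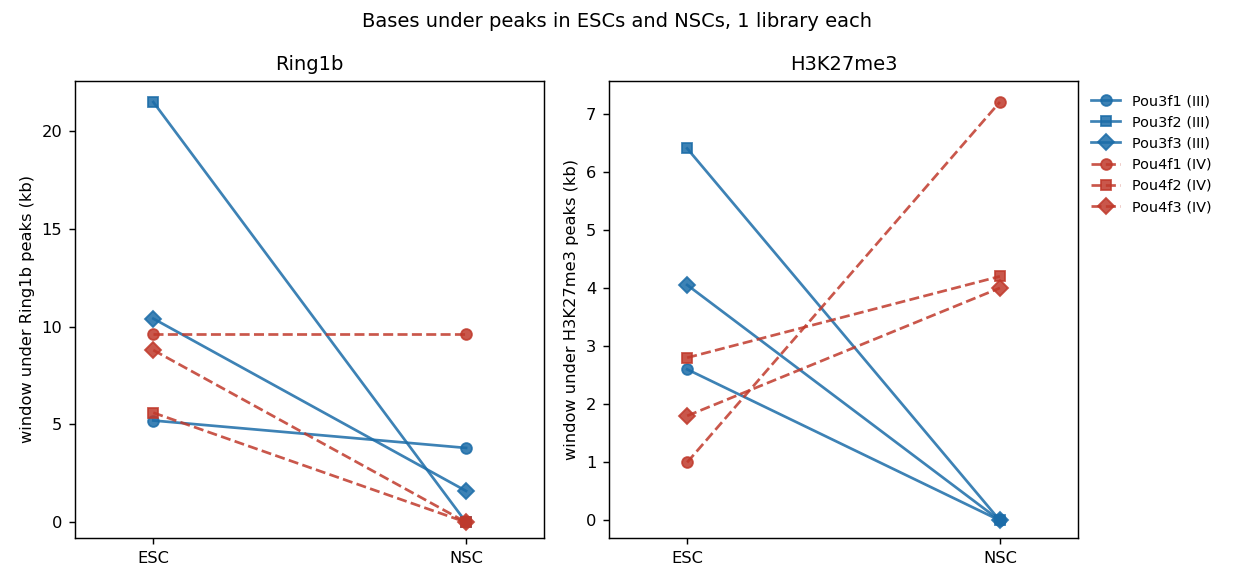
Bases of each window under Ring1b (left) and H3K27me3 (right) peaks in kb, with a line from the ESC value to the NSC value of each gene; solid blue lines are class III, dashed red lines class IV, with 1 library per point. For H3K27me3 all class III lines end at 0 and all class IV lines slope up, to between 4.00 and 7.20 kb; for Ring1b the Pou4f1 line is level at 9.60 kb, and Pou3f2, Pou4f2 and Pou4f3 end at 0.

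The 6 genes therefore fell into 4 combinations in NSCs. Ring1b without H3K27me3 was the state of Pou3f1 and Pou3f3. The reverse, H3K27me3 without Ring1b, was that of Pou4f2 and Pou4f3. Both were found at Pou4f1, where they shared 5400 bp, and neither at Pou3f2. Of the 1687 genes with Ring1b and H3K27me3 in the ESC window, 8.65% had only Ring1b in NSCs, 18.1% only H3K27me3, 17.5% both and 55.7% neither. Over all 6 lists, the presence pattern of Pou3f1 and Pou3f3 was shared by 40 of the 22350 genes, that of Pou3f2 by 123, that of Pou4f2 and Pou4f3 by 157 and that of Pou4f1 by 32, members included. Among genes with Ring1b and H3K27me3 in the ESC window, an NSC H3K27me3 peak was found at 61.7% of the 459 genes that also had Cbx2 and at 26.0% of the 1228 that did not. The POU genes went the other way, since the 3 with Cbx2 had no NSC H3K27me3 and the 3 without Cbx2 had it. Cbx2 was not profiled in NSCs among the lists analysed here.

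The DNA under the NSC peaks of the opposite states is shown for 1 gene of each class. It is the central 200 bases of the peak at Pou3f3, which had only Ring1b, and at Pou4f2, which had only H3K27me3. The lists give no summit, so the centre need not be the point of strongest signal. The Pou3f3 stretch (mm9, forward strand, chr1:42754901-42755100) is coding sequence throughout. The Pou4f2 stretch (mm9, reverse strand, chr8:80959401-80959600) holds 177 coding bases and 23 bases of the intron. CpGs are in capitals, 17 in Pou3f3 and 13 in Pou4f2.
Pou3f3: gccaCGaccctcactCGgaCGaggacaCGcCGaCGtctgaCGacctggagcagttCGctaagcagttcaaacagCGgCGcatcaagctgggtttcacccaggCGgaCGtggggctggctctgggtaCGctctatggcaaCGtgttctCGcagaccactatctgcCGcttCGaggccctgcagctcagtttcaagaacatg
Pou4f2: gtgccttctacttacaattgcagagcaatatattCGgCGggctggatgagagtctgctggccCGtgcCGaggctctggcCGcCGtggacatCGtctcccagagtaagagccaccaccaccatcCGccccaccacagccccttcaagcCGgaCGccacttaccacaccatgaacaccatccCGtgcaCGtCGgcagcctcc
In ESCs both stretches lay entirely under Ring1b, Ezh2 and H3K27me3, and only that of Pou3f3 lay under Cbx2.

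At 5 of the 6 genes CpGs were denser under ESC Ring1b peaks than in the rest of the window. The start, where CpGs were dense, lay inside such a peak at all 6 genes. A higher density under the peaks was thus largely set by the window, and was not compared with other genes. CpGs per 100 bp under ESC Ring1b peaks, against the rest of the window, were 7.42 and 1.39 at Pou3f1, 5.18 and 1.15 at Pou3f3, 5.67 and 1.11 at Pou4f1, 4.75 and 0.887 at Pou4f2, and 3.57 and 1.03 at Pou4f3. At Pou3f2 the values ran the other way, 2.82 and 3.81, but only 210 bp of its window lay outside the peak. The Pou3f2 window as a whole had 2.83 CpGs per 100 bp, that of Pou3f1 2.75 and that of Pou3f3 2.97. How CpG density relates to Ring1b coverage was not tested. In NSCs, the Ring1b peak left at Pou3f3 lay on DNA with 11.3 CpGs per 100 bp, and that at Pou3f1 on DNA with 8.29. The NSC H3K27me3 peaks lay on 4.71 CpGs per 100 bp at Pou4f1, 5.02 at Pou4f2 and 4.25 at Pou4f3. In the gene body, CpGs per 100 bp were 8.92, 7.10 and 8.23 in Pou3f1, Pou3f2 and Pou3f3 and 6.83, 4.47 and 7.08 in Pou4f1, Pou4f2 and Pou4f3. The class ranges did not overlap there, although Pou3f2 and Pou4f3 were all but equal. Each class III gene is 1 exon block, whereas Pou4f1, Pou4f2 and Pou4f3 have 4, 2 and 2 blocks, so only class IV bodies hold introns. A value over all protein-coding genes was not computed.

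**Figure D5:**
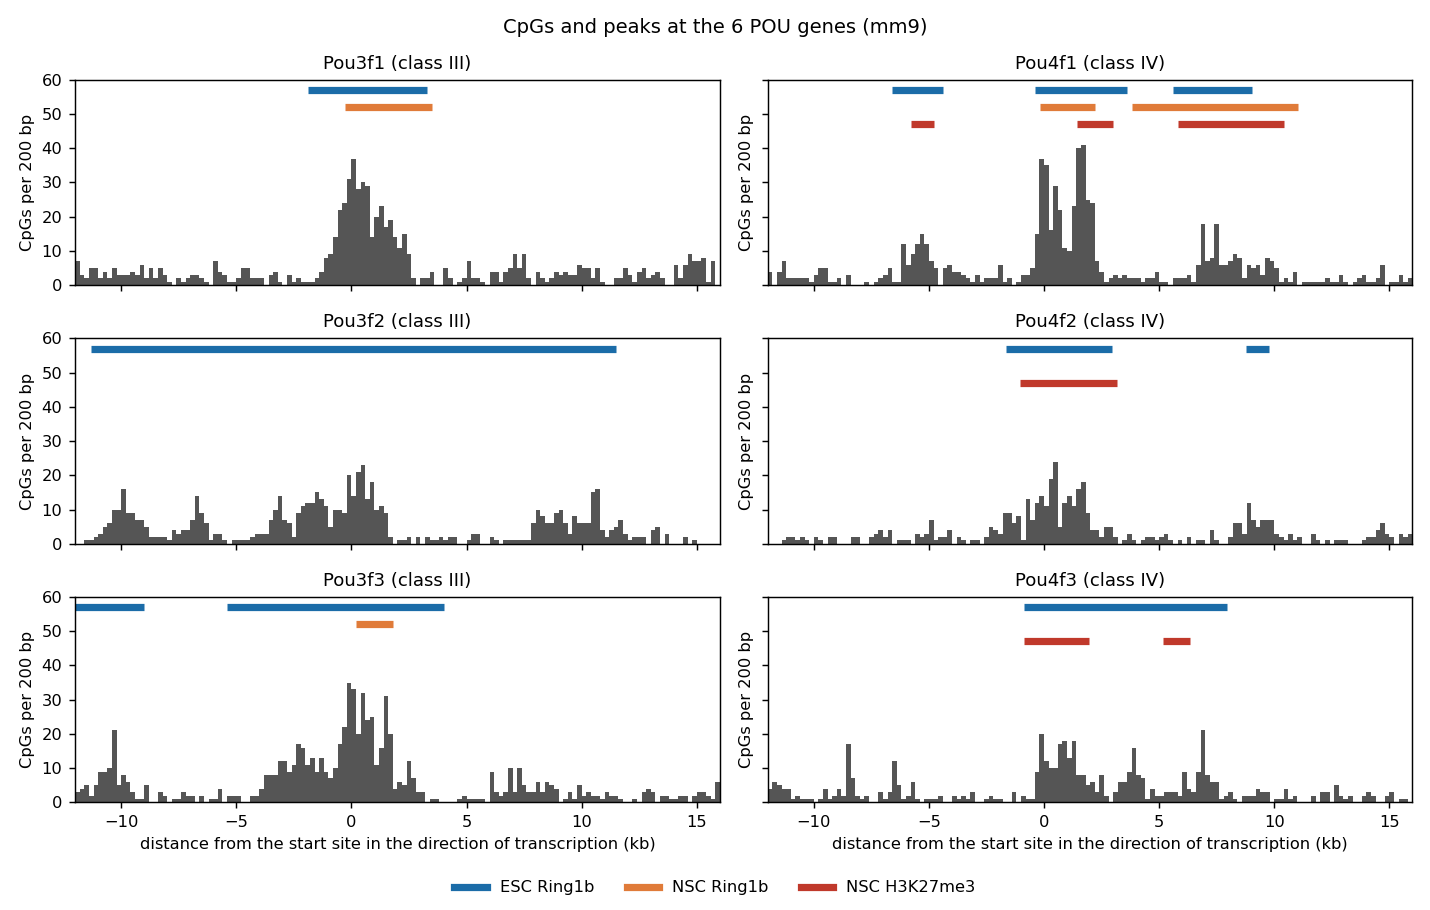
CpGs per 200 bp of mm9 (dark bars) against the distance from the start site in kb, with peaks of ESC Ring1b, NSC Ring1b and NSC H3K27me3 as horizontal bars above. CpGs gather around and just past the start of each gene, the tallest bar (41 CpGs) is in Pou4f1, and the single ESC Ring1b peak of Pou3f2 spans several lower groups of CpGs.

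The genes with the most similar coverage over the 6 lists were found by Euclidean distance between covered shares, in percentage points, among all protein-coding genes. Pou3f2 was nearest to Hoxa5 (22.8 points), Hoxa6 (25.8) and Hoxa3 (27.2), neighbours whose windows share peaks in 1 cluster. Pou3f3 was nearest to Osr2 (12.2), Irx5 (13.7) and Sp9 (15.3), and Pou3f1 to BC061194 (10.7), Zfp703 (11.1) and A830031A19Rik (11.96). For class IV, Pou4f2 was nearest to 1700067P10Rik (6.19), Nog (6.66) and Msx3 (7.43). Pou4f3 was nearest to Msx2 (11.6) and to the overlapping genes 1600029O15Rik (13.4) and Islr2 (14.7). Pou4f1 was nearest to Gm9804 (23.6) and Tcf21 (26.4), at distances about as large as those of Pou3f2. No POU gene was among the nearest genes of another.

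POU genes of other classes were looked up as well. Pou1f1, Pou2f1, Pou2f2, Pou2f3 and Pou5f1 had no peak of any list in their windows. Pou6f1 had its start in an ESC Ring1b peak, which covered 2.24% of its window. Genes known to act with each class were also listed. For class III, 11 of 12 listed genes were found, among them Zic1, Pax6, Olig2 and Sox3, which had the highest ESC Ring1b coverage of the list at 58.4%, 50.5%, 50.2% and 28.1%. ESC Ring1b covered the start of 8 of the 11, and 1 of these 8, Zic1, had it under NSC Ring1b. ESC H3K27me3 covered the start of 3, of which 0 had it under NSC H3K27me3. Of the 11 starts, 1 lay under NSC H3K27me3, that of Sox2, which was not under ESC H3K27me3. For class IV, 15 of 16 listed genes were found, with the highest ESC Ring1b coverage at Barhl2 (60.1%), Neurog2 (53.3%), Isl1 (49.7%) and Neurog1 (38.8%). ESC Ring1b covered the start of 9 of the 15, of which 7 had it under NSC Ring1b. ESC H3K27me3 covered the start of 6, of which 6 had it under NSC H3K27me3. NSC H3K27me3 covered 8 of the 15 starts, against 1.77% of all genes. ESC Cbx2 peaks lay in the window of 9 of the 15, with a median coverage of 12.3%. They lay in the window of 4 of the 11 class III partners, with a median of 0%, and of 3.09% of all genes. Among the 6 POU genes, by contrast, Cbx2 peaks were found at class III only. Among all protein-coding genes the start lay under ESC Ring1b in 7.03% and under ESC H3K27me3 in 4.31%, and of those genes 16.7% and 25.4% had it under the NSC peaks of the same target. Bases under H3K27me3 were more numerous in NSCs at 5 of the 12 class IV partners with an ESC peak and at 2 of the 9 class III partners, against 13.2% of all genes with an ESC peak. Median ESC Ring1b coverage was 18.2% in the class III list and 31.3% in the class IV list, and over all genes it was 0%.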

How the data were processed

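ChIP-seq was done on 10 samples, of which 6 have a list of peaks and 4 are inputs, not analysed here. The authors mapped paired-end tags to mm9 (the methods name Bowtie, the submitters' processing notes list BWA), compared tags with input in 1 kb windows by a negative binomial distribution and merged neighbouring enriched windows. The deposited values are the start and end of each peak in bp, with no score, p-value or depth, so no interval or test could be computed.

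In Python 3.11.15 with numpy 2.4.6, peaks were intersected with windows of 10 kb around genes of the GENCODE annotation of mm9 (NCBIM37), on the 20 chromosomes with peaks. Genes of a class were compared by the mean share. Of 2 overlapping annotations named Pou3f1, the protein-coding one was used. RefSeq promoter sequences (GRCm38.p6) were at hand for 4 of the 6 genes and all 4 matched mm9 exactly at 1 place. The text names the 6 genes, listed POU and partner genes and up to 3 most alike genes of each, and some listed genes are not reported here. Members and lists were chosen with earlier results of these data known. The overlap code was tested on simulated peaks. Alternatives were windows of other sizes, a minimum width of 2 kb, merging across gaps of up to 3 kb, most of the peak inside the window, other definitions of the start and medians or base pairs in the contrast of classes.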

Additional observations from a re-analysis of the deposited data

Results flagged for a closer look

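The change in H3K27me3 from ESCs to NSCs ran in opposite directions in the 2 classes. The covered share was lower in NSCs at 3 of 3 class III genes, by a mean difference of -19.5 percentage points, and higher at 3 of 3 class IV genes, by a mean of 13.8 points, which is 33.3 points between the classes. The difference was not tested: each cell type has 1 library, and the genes of a class share those libraries.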

How the results depend on the processing

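Shares depended on the size of the window, and directions mostly did not. In the order ESC Ring1b, Cbx2, Ezh2, H3K27me3, NSC Ring1b, NSC H3K27me3, the mean covered share of the 6 genes was 93.6%, 46.0%, 66.2%, 70.1%, 36.1% and 37.0% in the gene body alone. With 5 kb on either side it was 60.3%, 22.2%, 23.3%, 23.1%, 16.2% and 17.2%, and with 25 kb 21.8%, 8.54%, 8.30%, 7.65%, 4.63% and 4.802%. Peaks at least 2 kb wide gave 44.4% for ESC Ring1b, 13.6% for Ezh2, 10.9% for ESC H3K27me3, 9.29% for NSC Ring1b and 8.26% for NSC H3K27me3. Merging peaks within 3 kb gave 46.5%, 19.96%, 17.7%, 14.9%, 11.5% and 12.9%.

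The class III mean minus the class IV mean, in the same order, was 12.8, 92.0, 49.8, 8.27, 29.3 and -74.1 points in the gene body alone, and the difference of medians was 5.92, 35.6, 24.8, 9.20, 6.94 and -18.6 points. For NSC Ring1b these 2 settings turned the sign, so no direction between classes holds there. The means were 7.82% in class III and 13.1% in class IV, where Pou4f1 had 39.2% and Pou4f2 and Pou4f3 had 0%. Peaks at least 2 kb wide gave 22.4 points for ESC Ring1b, 21.0 for Ezh2, 13.98 for ESC H3K27me3, -7.57 for NSC Ring1b and -16.5 for NSC H3K27me3. In covered kb the differences were 4.36, 8.47, 4.73, 2.48, -1.4 and -5.13.

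The mean NSC minus ESC difference for Ring1b was -47.8 points in class III and -21.5 in class IV in the main setting. In the gene body it was -49.2 and -65.8, so the class with the larger drop depended on the window. With peaks at least 2 kb wide it was -50.1 and -20.1. Merging gave -22.1 for class IV. For H3K27me3 it was -74.2 and 8.12 points in the gene body, -17.9 and 12.6 with the wider peaks, and -21.6 and 17.6 after merging. H3K27me3 was lower in NSCs at 3 of 3 class III genes under all 6 settings, and higher at 3 of 3 class IV genes except in the gene body alone, where Pou4f3 was fully covered in both cell types and 2 of 3 were higher.

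A peak within 1 kb of the start was found at 5 genes for Ezh2, against 3 with the start inside a peak. For ESC H3K27me3 the counts were 5 against 4, and for Cbx2 and NSC Ring1b 3 against 2. With any transcript start, ESC H3K27me3 rose from 4 to 5 genes and NSC H3K27me3 from 2 to 3. Peaks at least 2 kb wide lowered Ezh2 from 3 to 2 and ESC H3K27me3 from 4 to 3. Peaks in the gene body alone numbered 6 for ESC Ring1b, 3 for Cbx2 and 3 for NSC H3K27me3, and peaks at least 2 kb wide 5 for ESC H3K27me3 and 3 for NSC H3K27me3. The widest peak was 21480 bp for ESC Ring1b within the window, and after merging 11000 bp for Cbx2, 9200 bp for Ezh2, 7800 bp for ESC H3K27me3, 11200 bp for NSC Ring1b and 9000 bp for NSC H3K27me3. RefSeq starts, an alternative chosen after seeing the data, left all 6 counts of starts as they were. No paired analysis was possible because each list is 1 library and no test was made. Differences in depth or antibody between libraries, which would change how many peaks pass a threshold, were not tested, as the lists hold no read counts.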

Other observations

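Pou3f4, the remaining class III gene, was looked up after the other values were seen. It lies on chromosome X (108009729 to 108010910) and had no Ring1b, Ezh2 or H3K27me3 peak in its window in either cell type. An ESC Cbx2 peak covered 7.55% of the window without reaching the start, so Cbx2 was the only list with a peak there.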
